A study of Mus musculus with 18 samples.

Results

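The genes described here are the mouse H2 genes, the members of the major histocompatibility complex (MHC) on chromosome 17, in RNA sequencing of mouse embryos whose heads had been removed. They were taken by name, as every gene whose symbol in the deposited table begins with H2-, which gave 45 of 55138 genes. The study sequenced 18 libraries in 6 groups of 3, and its title names the insulation of Hoxb13 and tail length. At embryonic day 9.5 (E9.5) it held wild type and animals homozygous for Del(i9-13), a HoxB allele whose label reads as a deletion between Hoxb9 and Hoxb13 on another chromosome. At E10.5 it held wild type and animals homozygous for Del(i9-13), for Hoxb13hd or for the combined Del(i9-13):Hoxb13hd, called the combined mutant here. The sources used here do not give what hd stands for, the strain of each line or the H2 haplotype of the embryos. The labels call the wild types littermates without saying of which mutant, and do not say whether a library is 1 embryo or a pool, so a p-value measures only how these libraries spread.

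MHC class I molecules are cell surface proteins that pair with beta-2-microglobulin and show peptides from inside the cell to CD8+ T cells and natural killer cells. Class II molecules are pairs of an alpha and a beta chain that show peptides taken up from outside, mainly on dendritic cells, B cells and macrophages. In the mouse, H2-K1 and H2-D1 encode classical class I molecules, and the Q, T and M genes encode nonclassical ones with a narrower role. Inbred strains carry different H2 haplotypes, which differ in sequence and in which Q and T genes they hold, and the genes of a haplotype are mostly inherited together. The reference genome is that of C57BL/6, so reads of another haplotype may align less well, and counts per gene carry no allele.

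The 45 genes lay on chromosome 17 between positions 33974659 and 37483552 of mm10, a stretch of 3.51 Mb. By name, 32 were class I genes (3 K and D genes, 8 Q genes, 7 T genes with H2-Bl, and 14 M genes), 12 were class II genes, and 1, H2-Ke6, encodes a steroid dehydrogenase and no MHC molecule. Of the 45, 34 were annotated as protein-coding and 11 as pseudogenes of some kind. Totals per library were 29829820 to 35934843 counts at E9.5, in poly(A)-enriched libraries, and 19333138 to 25722951 counts at E10.5, in ribo-depleted ones, so stage and library type cannot be told apart and each stage was analysed alone. The targeted gene Hoxb13 held 1 to 4 counts per library in E9.5 wild type and 1299 to 1421 in Del(i9-13), and at E10.5 it held 0 to 25 counts in the 6 libraries without the deletion and 130 to 307 in the 6 with it.

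Class I genes are alike in parts of their sequence, which limits how far reads from those parts can be told apart. The stretch below is from coding segment 4, which encodes the membrane-proximal domain, and other segments were not compared in this way. It is shown for the H2 genes called by edgeR and for H2-Q6, H2-Q10 and H2-D1, which are close to H2-Q7. Capitals mark bases that differ from H2-Q7, and all were read 5′ to 3′ on the coding strand from GENCODE M21 transcripts (GRCm38).
H2-Q7: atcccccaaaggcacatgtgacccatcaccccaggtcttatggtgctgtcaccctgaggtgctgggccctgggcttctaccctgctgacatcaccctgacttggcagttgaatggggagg
H2-Q6: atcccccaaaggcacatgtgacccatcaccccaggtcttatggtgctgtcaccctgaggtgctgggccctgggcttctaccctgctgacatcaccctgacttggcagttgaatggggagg
H2-Q10: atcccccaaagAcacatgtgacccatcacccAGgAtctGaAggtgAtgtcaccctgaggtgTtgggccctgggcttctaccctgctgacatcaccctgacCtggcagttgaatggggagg
H2-D1: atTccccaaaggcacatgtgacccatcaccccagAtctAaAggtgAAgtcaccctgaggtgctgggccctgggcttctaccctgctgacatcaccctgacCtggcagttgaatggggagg
H2-Q4: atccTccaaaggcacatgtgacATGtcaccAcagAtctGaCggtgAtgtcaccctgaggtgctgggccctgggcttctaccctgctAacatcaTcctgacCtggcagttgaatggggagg
H2-Bl: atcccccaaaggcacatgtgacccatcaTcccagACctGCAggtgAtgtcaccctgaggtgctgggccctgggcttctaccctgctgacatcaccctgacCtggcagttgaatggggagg
H2-T24: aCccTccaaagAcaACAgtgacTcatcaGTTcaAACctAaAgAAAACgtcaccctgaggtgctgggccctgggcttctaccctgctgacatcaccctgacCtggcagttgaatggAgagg
H2-Q6 (chr17:35427864-35427983, plus strand) was identical to H2-Q7 (chr17:35442267-35442386, plus strand) over all 120 bases. H2-D1 differed at 7 bases, H2-Q10 at 9, H2-Q4 at 12, H2-Bl (chr17:36081398-36081517, minus strand) at 8 and H2-T24 (chr17:36014956-36015075, minus strand) at 22. Each of the 6 others holds a run of at least 38 bases that is identical to H2-Q7.

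Read sharing was set out over whole exons as the share of 75-base words that also occur in another annotated gene. It was 17% for H2-Q7, with H2-Q10 and H2-Q5 as the main partners, 21.1% for H2-Q6, 20.7% for H2-Q4 and 40% for H2-T22. Most of the words shared by H2-T22 (25.2% of its words) lie in the overlapping antisense gene A930015D03Rik, and most of those shared by H2-Q4 (13.4%) lie in the overlapping antisense gene Gm11131. H2-T24 shared 0.459%, H2-Bl 3.74%, H2-K1 3.1%, H2-D1 5.56% and the class II gene H2-Ab1 0%. H2-Ke6 shared 65.5% with the overlapping gene model Gm20427. The sources used here do not give the submitters' read length, strand setting or treatment of reads with several matches. Relative to the median gene, FPKM from Cufflinks was 2.29 times the count per exon length for H2-Q7 and 0.70 times for H2-Q6. Both ratios lay within the range of 0.66 to 2.57 that held 90% of 15567 genes. They therefore do not show whether the 2 kinds of value divided shared reads differently.

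**Figure D1:**
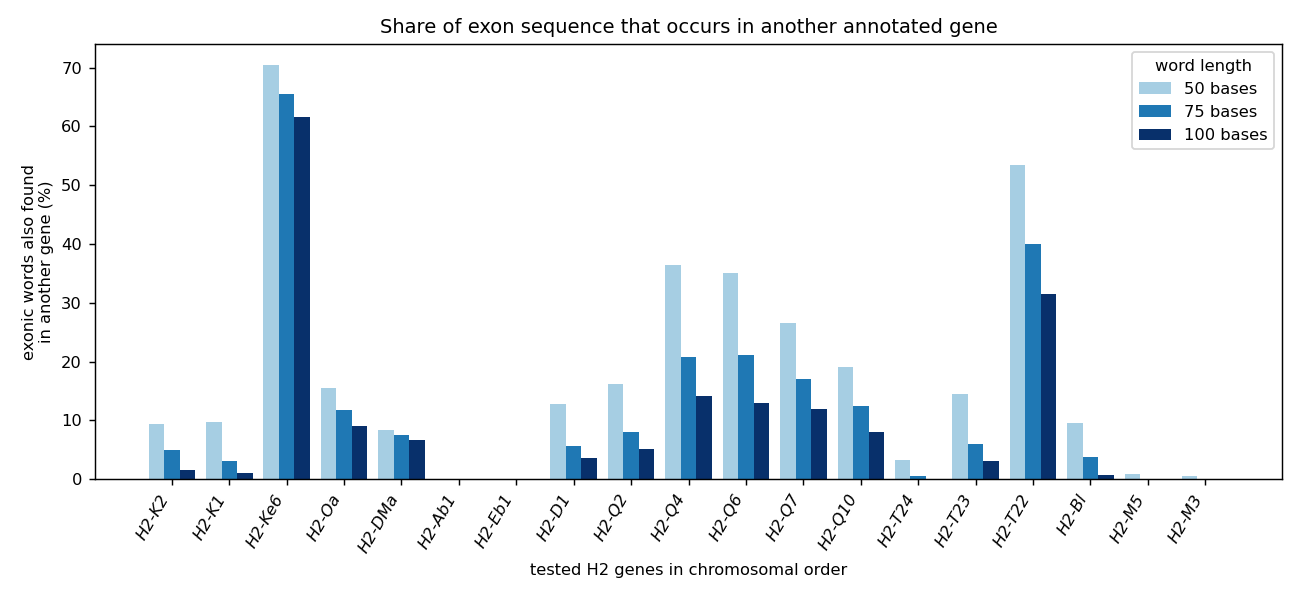
Share of each tested H2 gene's exonic words that also occur in another annotated gene (vertical axis, percent), for words of 50, 75 and 100 bases, with the 19 tested genes in chromosomal order. The Q genes and H2-T22 stand above H2-K1, H2-T24 and H2-Bl, and H2-Ab1 is at 0 at each length.

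Most H2 genes were silent or near silent in these embryos. Of the 45, 12 had 0 counts in all 18 libraries, 10 of them M genes and 2 the class II pseudogenes H2-Pa and H2-Pb, and a further 13 had between 1 and 100 counts over all libraries together. A filter on low counts left 18 for testing at E9.5 and 16 at E10.5, 19 in all, and 13 reached a mean of 1 CPM (the usual counts-per-million unit, with library sizes scaled by TMM) in some group. On the length-adjusted FPKM scale, H2-Ke6 was highest in E10.5 wild type at 10.7 ± 0.261, followed by H2-K1 at 4.72 ± 0.515, H2-D1 at 4.54 ± 0.457, H2-T22 at 2.91 ± 0.516, H2-Q4 at 2.33 ± 0.139, H2-Q7 at 1.825 ± 0.0330, H2-Ab1 at 1.58 ± 0.232 and H2-Bl at 0.726 ± 0.195. H2-K1 and H2-D1 differed by less than their spread there, and their order turned in the combined mutant (4.44 ± 0.689 and 5.18 ± 0.503). FPKM of H2-Q6, H2-T24, H2-T23, H2-Q2 and H2-DMa stood below 1 on average in each group.

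The class I genes as a sum differed less than H2-Q7 or H2-T24 did alone. Their summed level was 50.6 ± 3.81 CPM (SD, n = 3) in E9.5 wild type and 46.6 ± 3.03 in E9.5 Del(i9-13). At E10.5 it was 47.3 ± 1.32 in wild type, 41.4 ± 0.717 in Del(i9-13), 50.8 ± 4.07 in the combined mutant and 48.0 ± 10.03 in Hoxb13hd. The Del(i9-13) libraries at E10.5 (40.7, 41.3 and 42.1) lay below every wild type library (46.2, 48.8 and 46.8), while the Hoxb13hd libraries ranged from 38.7 to 58.6. The log2 difference of the fitted sums was −0.19 (SE 0.12) for Del(i9-13) against wild type and 0.30 (SE 0.12) for the combined mutant against Del(i9-13). A sum over these members was not tested.

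Single H2 genes differed in opposite directions. H2-Q7 (chr17:35439155-35443773), a Q region gene of the Qa-2 group, stood at 3.40, 3.52 and 3.66 CPM in the E10.5 wild type libraries. Its Del(i9-13) libraries stood at 1.28, 0.543 and 1.77, all below wild type. In the combined mutant it was at 5.13, 4.68 and 3.65, and in Hoxb13hd at 3.54, 2.65 and 3.91. The Del(i9-13) libraries were thus below all 9 others. In edgeR's quasi-likelihood test with Benjamini-Hochberg adjustment over all genes, H2-Q7 passed in Del(i9-13) against wild type (log2 −1.54, SE 0.30, adjusted p = 0.045) and in the combined mutant against Del(i9-13) (log2 1.89, SE 0.30, adjusted p = 0.0086).

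The call against wild type was lost in 10 of 12 fits that left out 1 library (adjusted p up to 0.17), and kept without Del(i9-13) replicate 1 or 3. With the counts of H2-Q5, H2-Q6 and H2-Q10 added to it, H2-Q7 gave −1.22 against wild type (adjusted p = 0.14). The call against Del(i9-13) was kept in all 12 such fits, and was lost only when the 2 groups compared were fitted alone (adjusted p = 0.1). At E9.5, H2-Q7 stood at 3.67, 3.21 and 6.20 CPM in wild type and at 0.232, 2.42 and 1.78 in Del(i9-13), again without overlap, and did not pass (log2 −1.57, SE 0.74, adjusted p = 0.50). The lowest E9.5 value rests on 8 reads, against 73 and 56 in the other Del(i9-13) libraries.

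H2-Q6, the neighbour of H2-Q7 and identical to it over the stretch shown, had the same low libraries. It passed no test by edgeR with all libraries and the filter on low counts. At E10.5 it stood at 0.997, 1.19 and 1.52 CPM in wild type, 0.961, 0.317 and 0.802 in Del(i9-13), 1.86, 1.68 and 1.91 in the combined mutant and 2.10, 1.33 and 2.01 in Hoxb13hd. Its difference was −0.81 (adjusted p = 0.48) between Del(i9-13) and wild type and 1.37 (adjusted p = 0.074) between the combined mutant and Del(i9-13). Without the filter the latter passed (1.36, adjusted p = 0.039), and H2-Q6 passed the overall test both without the filter (adjusted p = 0.029) and by DESeq2 (adjusted p = 0.0087).

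H2-Q4 (chr17:35379617-35384674), which encodes the Qb-1 molecule, moved less but with less spread. It stood at 5.49, 6.31 and 6.32 CPM in E10.5 wild type, 4.73, 3.803 and 4.39 in Del(i9-13), 6.59, 6.87 and 6.64 in the combined mutant and 5.73, 4.97 and 6.39 in Hoxb13hd. The 3 Del(i9-13) libraries were below all others. By edgeR with all libraries, H2-Q4 passed in the combined mutant against Del(i9-13) alone (log2 0.64, SE 0.14, adjusted p = 0.049). That call was lost in 10 of 12 fits without 1 library (adjusted p up to 0.19) and kept without Del(i9-13) replicate 1 or Hoxb13hd replicate 2. DESeq2 also called H2-Q4 in the overall test (adjusted p = 0.012). At E9.5, H2-Q4 stood at 7.68, 6.46 and 9.68 CPM in wild type and 6.27, 7.14 and 7.55 in Del(i9-13), with overlap.

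H2-Q2, another Q gene, had means of 1.12 ± 0.223 CPM in E10.5 wild type and 0.470 ± 0.289 in Del(i9-13) (log2 −1.23, SE 0.44, adjusted p = 0.38). H2-Q10, whose product is secreted, was at 0.276 ± 0.181 in Del(i9-13) and 0.774 ± 0.228 in the combined mutant (log2 1.45, SE 0.47, adjusted p = 0.15). All 5 Q genes tested at E10.5 had lower means in Del(i9-13) than in the other 3 groups, with 1 of them called against wild type.

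The T region gene H2-T24 (chr17:36005695-36020560) and H2-Bl (chr17:36080115-36084223), annotated as a polymorphic pseudogene, showed another order of the groups. H2-T24 stood at 1.179, 1.61 and 2.53 CPM in E10.5 wild type and 2.56, 2.49 and 2.03 in Del(i9-13). It was at 0.398, 0.156 and 0.434 in the combined mutant and 0.0932, 0.142 and 0.423 in Hoxb13hd. All 6 libraries with the Hoxb13hd allele, which held 2 to 10 reads of H2-T24 each, were below all 6 without it, which held 26 to 64. H2-T24 passed in the combined mutant against wild type (log2 −2.43, SE 0.44, adjusted p = 0.038), in Hoxb13hd against wild type at a log2 difference of −3.03 (SE 0.48, adjusted p = 0.011) and in the combined mutant against Del(i9-13) (log2 −2.84, SE 0.43, adjusted p = 0.0062).

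Of these calls, the last was kept in all 12 fits without 1 library, that in Hoxb13hd was lost without Hoxb13hd replicate 2 (adjusted p = 0.065), and that in the combined mutant against wild type was lost in 8 of 12 fits, among them every fit without a library of either group compared (adjusted p up to 0.16). Between the 2 groups with Hoxb13hd, H2-T24 differed by 0.60 (SE 0.58, adjusted p = 0.69). At E9.5 it stood at 0.364, 0.602 and 0.0332 CPM in wild type, the last of these from 1 read, and at 1.02, 0.763 and 1.52 in Del(i9-13), without overlap (log2 1.71, SE 0.64, adjusted p = 0.39).

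H2-Bl put the groups of each stage in nearly the same order as H2-T24. At E10.5 it stood at 0.453, 0.890 and 1.05 CPM in wild type, 1.36, 1.45 and 1.82 in Del(i9-13), 0.177, 0.273 and 0.217 in the combined mutant and 0.280, 0.0947 and 0.317 in Hoxb13hd. The Del(i9-13) libraries were above every other, and the 6 Hoxb13hd-bearing libraries, with 2 to 7 reads each, below every other. H2-Bl passed in Hoxb13hd against wild type at a log2 difference of −1.79 (SE 0.44, adjusted p = 0.046) and in the combined mutant against Del(i9-13) (log2 −2.75, SE 0.40, adjusted p = 0.0049).

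The H2-Bl call against Del(i9-13) was kept in all 12 fits without 1 library, while the call in Hoxb13hd was lost in 11 (adjusted p up to 0.17) and kept without Del(i9-13) replicate 1. In the combined mutant against wild type the estimate was −1.82 (SE 0.43, adjusted p = 0.098), about as large as in Hoxb13hd, and DESeq2 called it (−1.85, adjusted p = 0.043). At E9.5, H2-Bl stood at 1.77, 2.11 and 0.497 CPM in wild type and 3.69, 4.38 and 4.41 in Del(i9-13), without overlap (log2 1.51, SE 0.44, adjusted p = 0.29; DESeq2 adjusted p = 0.015).

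**Figure D2:**
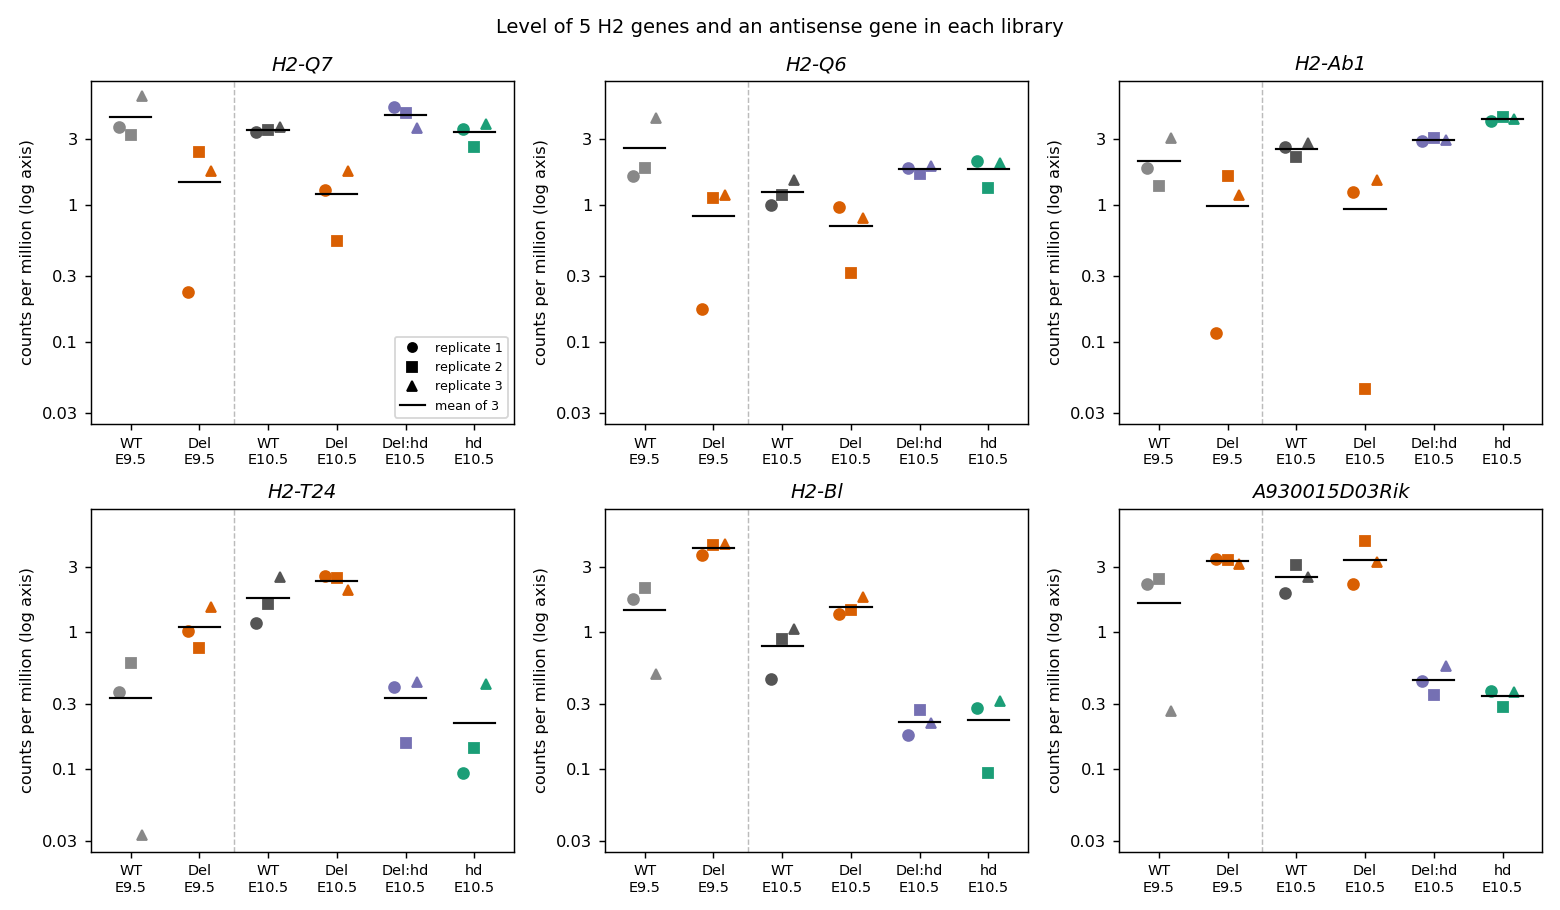
Level of H2-Q7, H2-Q6, H2-Ab1, H2-T24, H2-Bl and the antisense gene A930015D03Rik in each library (vertical axis, CPM on a log scale), by group, with markers for replicates and bars for the mean of 3. Del is Del(i9-13), hd is Hoxb13hd and Del:hd carries both. H2-Q7, H2-Q6 and H2-Ab1 have 1 very low library among the Del libraries of each stage, and the lower row is lowest in the 6 libraries with hd at E10.5 and in 1 wild type library at E9.5.

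The antisense gene A930015D03Rik (chr17:35994453-36038435, plus strand) overlaps H2-T24, H2-T23 and H2-T22 on the opposite strand, and was low in the same E10.5 libraries as H2-T24. It stood at 1.95 to 3.09 CPM in E10.5 wild type, 2.24 to 4.66 in Del(i9-13), 0.351 to 0.564 in the combined mutant and 0.284 to 0.373 in Hoxb13hd. It passed in the same 3 comparisons as H2-T24, at −2.47 (adjusted p = 0.0045), −2.87 (0.0011) and −2.90 (0.00045), and each call was kept in all 12 fits without 1 library. Since the sources used here do not give the strand setting of the counter, reads of H2-T24 and of this gene may not be separated. With both counted as 1 gene the estimates were −2.46 (adjusted p = 0.0021), −2.94 (0.00045) and −2.88 (0.00025).

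H2-T22, a ligand of gamma delta T cells, and H2-T23, whose product Qa-1 is read by natural killer cells, share that overlap and did not follow H2-T24. H2-T22 was at 7.26 ± 1.24 CPM in E10.5 wild type, 7.33 ± 0.654 in Del(i9-13), 9.15 ± 1.24 in the combined mutant and 6.77 ± 0.842 in Hoxb13hd. H2-T23 was at 0.706 ± 0.315, 1.17 ± 0.137, 0.768 ± 0.297 and 0.920 ± 0.750 in the same order, and neither passed a test by edgeR (adjusted p from 0.20 to 0.99 over both genes and the 5 E10.5 contrasts). The T region thus held H2-T24, H2-Bl and A930015D03Rik at low levels in the Hoxb13hd-bearing libraries beside 2 genes that were not low there.

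The classical class I genes passed no test by edgeR with all libraries and the filter on low counts. H2-K1 was at 9.57 ± 0.929 CPM in E10.5 wild type, 12.02 ± 3.44 in Del(i9-13), 9.05 ± 1.41 in the combined mutant and 11.0 ± 3.11 in Hoxb13hd. H2-D1 was at 13.2 ± 0.992, 8.55 ± 2.03, 14.7 ± 1.69 and 15.1 ± 4.05 in the same order. Every Del(i9-13) library (9.69, 6.20 and 9.75) was below every other E10.5 library in H2-D1, at −0.62 against wild type (adjusted p = 0.30) and 0.78 for the combined mutant against Del(i9-13) (adjusted p = 0.082). DESeq2 called H2-D1 in the latter (0.78, adjusted p = 0.0075) and in the overall test (adjusted p = 0.004), and edgeR without the filter called it in the overall test (adjusted p = 0.041). H2-Ke6, the highest member by FPKM, lay between 13.5 and 18.4 CPM in all 12 E10.5 libraries.

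Of the class II genes, H2-Ab1, the beta chain of the I-A molecule, was the highest in the 4 groups other than Del(i9-13), where H2-DMa was above it on average at both stages, and its alpha chain partner H2-Aa was nearly absent. H2-Ab1 stood at 2.63, 2.25 and 2.82 CPM in E10.5 wild type and at 1.24, 0.0453 and 1.52 in Del(i9-13). It was at 2.92, 3.08 and 2.95 in the combined mutant and 4.10, 4.40 and 4.23 in Hoxb13hd. The groups did not overlap, from Del(i9-13) at the bottom to Hoxb13hd at the top, yet no contrast passed by edgeR (−1.43, adjusted p = 0.38 for Del(i9-13) against wild type, and 1.65, adjusted p = 0.14 for the combined mutant against Del(i9-13)). The lowest library, Del(i9-13) replicate 2, held 1 read, where the others of its group held 31 and 36. Without that library H2-Ab1 passed the overall test and the tests of Hoxb13hd against wild type and the combined mutant against Del(i9-13), and DESeq2 called the first and the last with all libraries.

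H2-Aa held 0 reads in the 3 E10.5 wild type libraries, 1 to 4 in Del(i9-13), 0 to 6 in the combined mutant and 17, 6 and 8 in Hoxb13hd. It was removed by the filter on low counts. Against a floor of 3 counts over the wild type group, it was at least 11.4-fold higher in Hoxb13hd, and it passed the test when the filter was left out (adjusted p = 0.0038). H2-DMa, which helps load peptides on class II molecules, was at 0.934 ± 0.218 CPM in E10.5 wild type and 1.56 ± 0.206 in Del(i9-13) (log2 0.73, SE 0.27, adjusted p = 0.40). The class II genes summed to 4.34 ± 0.632 and 3.77 ± 0.864 CPM in E9.5 wild type and Del(i9-13), and to 4.599 ± 0.179, 3.73 ± 0.688, 5.28 ± 0.639 and 7.19 ± 0.462 in E10.5 wild type, Del(i9-13), the combined mutant and Hoxb13hd.

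**Figure D3:**
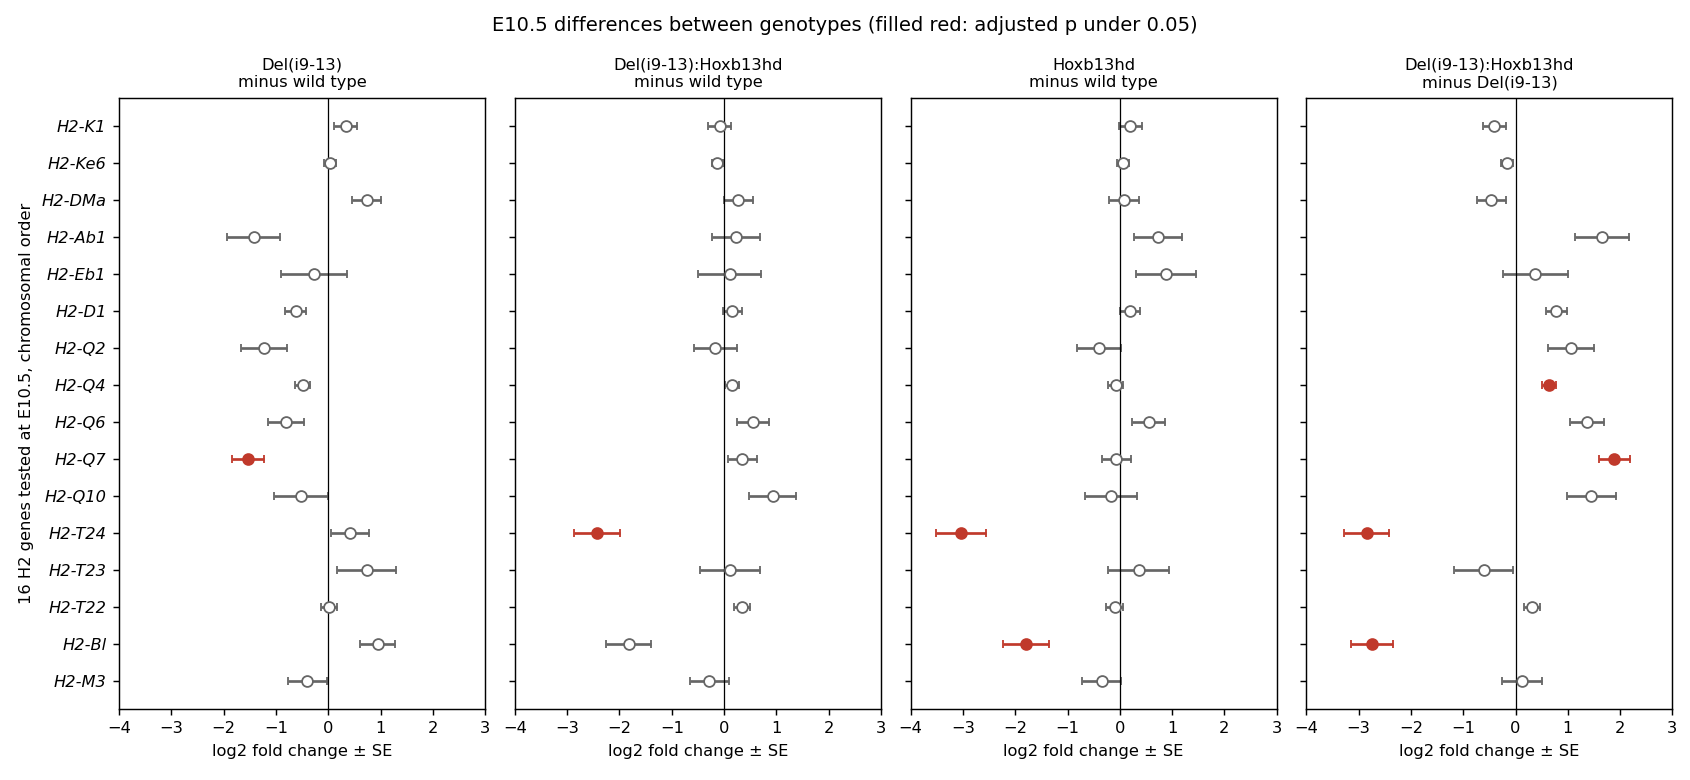
Log2 fold change with its standard error (horizontal axis) of the 16 H2 genes tested at E10.5, in chromosomal order from top to bottom, in 4 contrasts. Filled red points passed an adjusted p of 0.05. The 5 Q genes lie left of 0 in the first panel and right of it in the last, and H2-T24 and H2-Bl lie far left wherever Hoxb13hd is set against a group without it.

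By comparison, H2 genes passed as follows, with the share over all genes tested in brackets. In E9.5 Del(i9-13) against wild type 0 of 18 passed (0.362% of all genes), with 3 at an unadjusted p under 0.05. DESeq2 called 1, H2-Bl, and 329 over all genes. At E10.5, 1 of 16 passed in Del(i9-13) against wild type (0.488%), 1 of 16 in the combined mutant against wild type (0.401%) and 2 of 16 in Hoxb13hd against wild type (3.01%). Against Del(i9-13), the combined mutant gave 4 of 16 (0.907%), 2 higher and 2 lower. The combined mutant against Hoxb13hd gave 0 of 16 (0.959%), with 2 at an unadjusted p under 0.05. DESeq2 called 0 there, and 658 over all genes. The test of any difference among the 4 genotypes called 3 of 16, H2-T24, H2-Bl and H2-Q7 (4.39%). The 3 contrasts with wild type share the same 3 control libraries.

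The median tested H2 gene also differed more in size than the median gene. The H2 genes were not matched on level to the other genes, though, and low counts can widen differences. Several of them also moved together in single libraries, so they are not independent of each other. The median absolute log2 difference of tested H2 genes was 0.57 in E10.5 Del(i9-13) against wild type, where it was 0.11 over all genes. It was 0.71 against 0.15 in the combined mutant against Del(i9-13), and 0.40 against 0.11 in E9.5 Del(i9-13) against wild type. In the other 3 contrasts it lay between 0.24 and 0.27, against 0.13 to 0.16 over all genes. Groups did not overlap in 9 of 16 H2 genes in E10.5 Del(i9-13) against wild type and in 10 of 16 in the combined mutant against Del(i9-13), where 13% and 20.3% of all genes did not. In the combined mutant against wild type, Hoxb13hd against wild type and the combined mutant against Hoxb13hd the numbers were 5, 3 and 4 of 16 (21.5%, 25.4% and 22.6% of all genes), and at E9.5 6 of 18 (18.9%).

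The difference that the deletion made did not pass as different between the Hoxb13hd and the other background for any of 16 H2 genes by edgeR (0.523% of all genes passed), with 4 at an unadjusted p under 0.05. The nearest was H2-Q7, at 1.96 log2 units (adjusted p = 0.062), followed by H2-Q4 at 0.72 (adjusted p = 0.15). The same test between the stages, where library type also differs, called 0 H2 genes (0.0453% of all genes), also at an unadjusted p under 0.05, and H2-Q7 differed by −0.05 there.

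H2 genes also varied within groups, though they were not matched on level to the other genes and low counts can add spread. Their pooled standard deviation between libraries of a group had a median of 0.37 log2 units at E9.5, against 0.12 over all genes, and 11 of 18 were above the 90th percentile of all genes. At E10.5 it was 0.28 against 0.16, with 4 of 16 above that percentile. H2-Q7 at 0.82, H2-Ab1 at 0.75 and H2-Q6 and H2-Q2 at 0.69 were the most variable at E9.5.

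Much of that spread came with single libraries in which genes along the interval moved together. In E9.5 Del(i9-13) replicate 1, H2-Q7, H2-Q6 and H2-Ab1 held 8, 6 and 4 reads, and H2-D1 (5.34 CPM) and H2-Q2 (0.145) were the lowest of the 6 libraries. The same library was the highest in H2-K1 (18.3 CPM). In E10.5 Del(i9-13) replicate 2, H2-Q7, H2-Q6 and H2-Ab1 held 12, 7 and 1 reads, H2-D1 (6.20 CPM), H2-Q4 (3.803) and H2-Q2 (0.136) were the lowest of 12, and H2-K1 (15.8) was the highest. H2-T24 and H2-Bl were not low in either library.

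E9.5 wild type replicate 3 showed the reverse. It was the highest of the 6 E9.5 libraries in H2-Q7 (6.20 CPM), H2-Q6 (4.27), H2-Ab1 (3.08), H2-D1 (11.7), H2-Q4 (9.68) and H2-Q2 (1.56). It was the lowest in H2-K1 (10.2), H2-T24 (0.0332), H2-Bl (0.497), H2-T23 (0.132) and A930015D03Rik (0.265, where the other 5 lay between 2.24 and 3.42). H2-T24, H2-Bl and A930015D03Rik were thus at their stage's lowest in this library at E9.5 and in the 6 libraries with Hoxb13hd at E10.5.

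**Figure D4:**
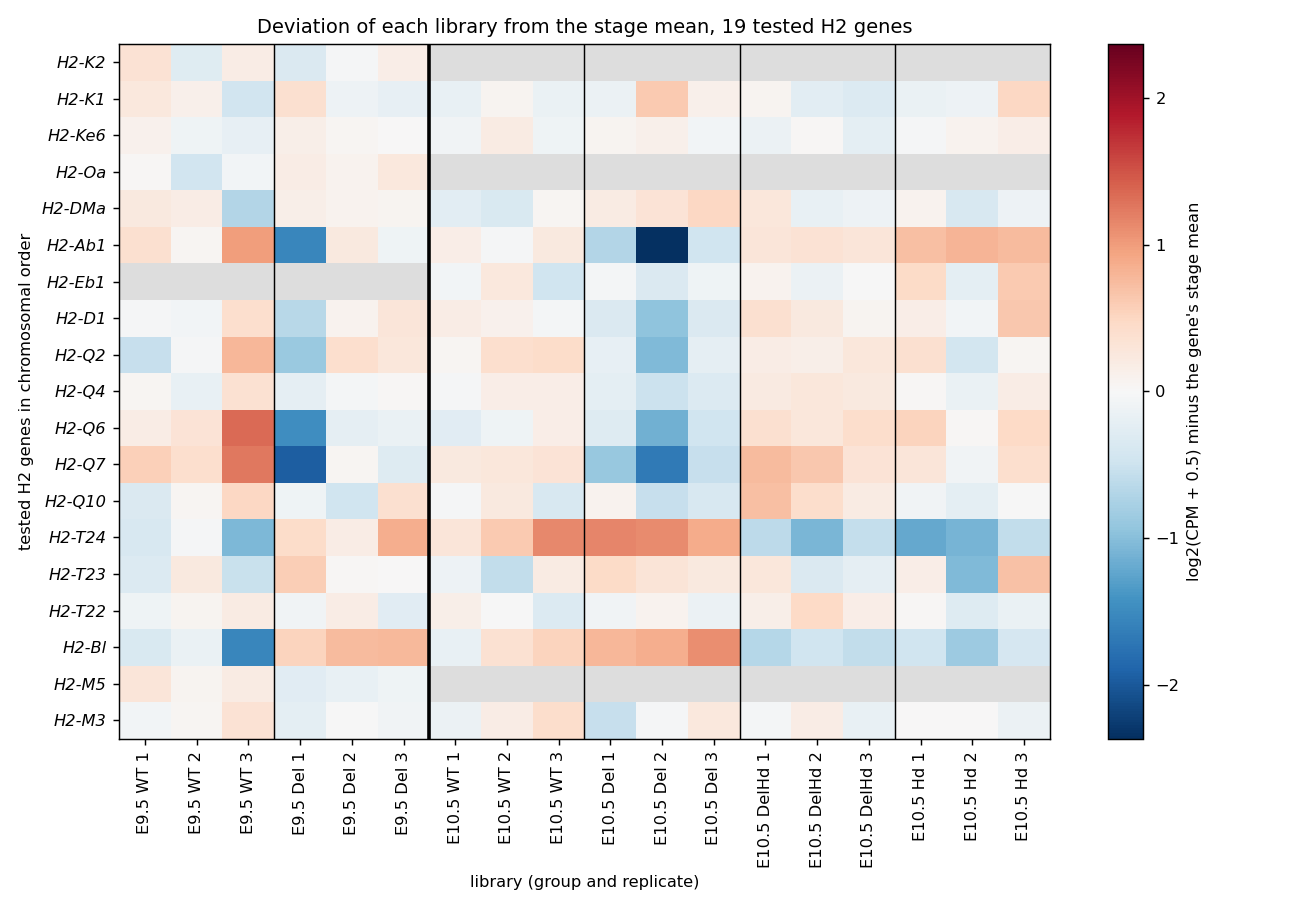
Deviation of each library from the stage mean (colour, log2 of CPM plus 0.5) for the 19 tested H2 genes in chromosomal order, with libraries in columns, lines between groups and gene and stage combinations that were not tested in grey. E9.5 Del 1 and E10.5 Del 2 are blue from H2-Ab1 through H2-Q7, E9.5 WT 3 is red there and blue at H2-T24 and H2-Bl, and the 6 DelHd and Hd libraries are blue at H2-T24 and H2-Bl.

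The library that was lowest in H2-Q7 within its group was also the lowest in H2-D1 and in H2-Q4 in 5 of 6 groups, and in H2-Q6 and H2-Q2 in 4 of 6. Over 15580 genes tested at both stages, 1.04% were lowest in that library in 5 or 6 groups and 7.95% in 4 or more. H2-Ab1 was the lowest there in 3 of 6 groups, as were H2-Q10, H2-Bl and H2-M3. H2-K1 was in 2, and H2-T24, H2-T23, H2-T22, H2-DMa and H2-Ke6 were in 1. The share over all genes was not taken for 3 groups or fewer, so these numbers do not set those genes apart.

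Some genes of the interval without an H2- name passed as well, in a number that depended on single libraries. Of 276 listed between the outermost H2 genes, 91 were tested at E10.5, and 8 of them (8.79%) passed the test of any difference (26 without Del(i9-13) replicate 1, 3 without wild type replicate 1 or Del(i9-13) replicate 3, 4 without any 1 library of the combined mutant and 1 without Del(i9-13) replicate 2 or Hoxb13hd replicate 2 or 3), where 4.39% of all genes did, 4.28% on other chromosomes and 5.31% on the rest of chromosome 17. Within 5 Mb on either side of the interval 11% of 100 tested genes passed. At E9.5 0 of 86 passed by edgeR, with 9 at an unadjusted p under 0.05. DESeq2 called 1 there, and 329 over all genes. Beside A930015D03Rik, the 8 were Vars, Vars2, Clic1, Bag6, Aif1, 1110038B12Rik and Gm11131, and Lsm2 passed in 1 contrast alone. Of these, A930015D03Rik and Gm11131 overlap H2 genes on the opposite strand. Their reads may not be separated from those of the H2 genes, so they are not independent neighbours.

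Vars2 (chr17:35655634-35667592), a mitochondrial valyl-tRNA synthetase gene between the Q and the T genes, stood at 31.5, 33.6 and 32.2 CPM in E10.5 wild type and at 43.3, 50.7 and 42.3 in Del(i9-13) (log2 0.49, SE 0.08, adjusted p = 0.02). Its highest library was replicate 2 of Del(i9-13), the lowest in H2-Q7, and in E9.5 wild type replicate 3 it had its lowest E9.5 value, 40.1 CPM. Gm11131, the antisense gene over H2-Q4, went with H2-Q4, at 0.152 ± 0.0987 CPM in Del(i9-13) and 0.741 ± 0.154 in the combined mutant (log2 2.22, SE 0.46, adjusted p = 0.043). The others were higher in Hoxb13hd than in wild type by 0.34 to 0.44 (Vars, the cytosolic valyl-tRNA synthetase gene, Lsm2 and 1110038B12Rik), or passed otherwise (Clic1 at 0.29 in the combined mutant against Del(i9-13), with Bag6 and the macrophage gene Aif1 only in the overall test).

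Glo1, the glyoxalase gene at chr17:30584936-30626871, lies 3.35 Mb outside the interval and is known to vary in copy number among inbred strains. It was chosen after its values were seen, so they describe and do not test the pattern of the H2 genes. The copy number of Glo1 in these embryos was not tested. It stood at 82.5, 76.7 and 71.0 CPM in E10.5 wild type and 99.96, 167.5 and 115.9 in Del(i9-13), and at 72.7 to 86.9 in the 6 Hoxb13hd-bearing libraries. The difference between Del(i9-13) and wild type was 0.74 on the log2 scale (SE 0.15, adjusted p = 0.066). Glo1 passed the test of any difference (adjusted p = 0.03). Its highest E10.5 and E9.5 libraries (167.5 and 138.0 CPM) were Del(i9-13) replicates 2 and 1, the libraries lowest in H2-Q7 and H2-Ab1, and its lowest E9.5 library (73.6) was wild type replicate 3, the highest in both.

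**Figure D5:**
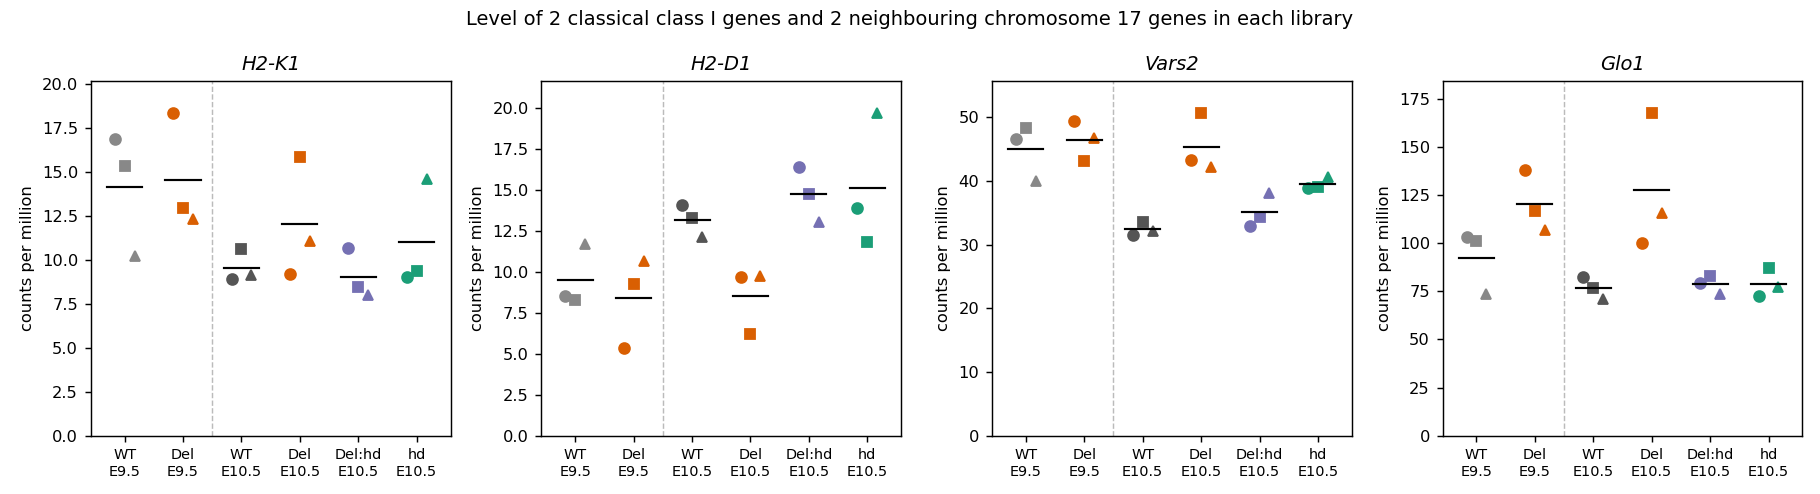
Level of H2-K1, H2-D1, Vars2 and Glo1 in each library (vertical axis, CPM from 0), by group, with markers for replicates 1 (circle), 2 (square) and 3 (triangle) and bars for the mean of 3. Del 1 at E9.5 and Del 2 at E10.5 are the highest in H2-K1 and Glo1 and the lowest in H2-D1 at their stage.

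H2-Q7, H2-Q6, H2-Q2, H2-Q4, H2-D1 and H2-Ab1 were low together in E9.5 Del(i9-13) replicate 1 and E10.5 Del(i9-13) replicate 2 and high together in E9.5 wild type replicate 3. H2-K1 went the other way in these libraries. Over all 6 groups, H2-K1 was highest in the library lowest in H2-Q7 in 2 and lowest there in 2. Whether embryos or lines carried different linked H2 haplotypes was not tested, since the counts hold no alleles and the labels name no strain. An effect of the HoxB alleles and an inherited difference on chromosome 17 cannot be told apart. The combined mutant and Hoxb13hd, which share the Hoxb13hd allele, also shared low H2-T24, H2-Bl and A930015D03Rik. E9.5 wild type replicate 3 was low in the same 3 genes. It is a single library of the other stage and library type, with 1 read of H2-T24. The cause of either was not tested.

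The genes that serve antigen presentation with the H2 molecules were not among the calls. Of a list of 24, 17 were tested at E9.5 and 20 at E10.5 and 0 passed in any comparison by edgeR, with medians between −0.01 and 0.08 log2 units. B2m, the invariant chain of class I molecules, was at 28.0, 26.2, 27.4 and 21.7 CPM on average in E10.5 wild type, Del(i9-13), the combined mutant and Hoxb13hd (Hoxb13hd against wild type −0.37, adjusted p = 0.11). The peptide transporter gene Tap1 was at 1.197, 1.43, 1.96 and 1.76 CPM and its partner gene Tapbp at 8.04, 8.46, 9.74 and 9.77. Cd74, the class II invariant chain gene, was at 0.173, 0.568, 0.308 and 1.27 (Hoxb13hd against wild type 2.84, adjusted p = 0.12). Psmb8 of the immunoproteasome, Nlrc5, which drives class I genes, and Ciita, which drives class II genes, stayed at or below 0.337 CPM on average in each group.

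Of 20 interferon response genes 12 were tested at each stage and 0 passed in any comparison. At an unadjusted p under 0.05 the presentation list had 0 to 4 genes per comparison and the interferon list 0 to 3. DESeq2 called 0 interferon genes, and of the presentation list B2m, Calr and Canx in Hoxb13hd against wild type, Calr and Canx in the overall test and Calr in the combined mutant against Hoxb13hd. In bulk RNA, fewer cells of a type and less RNA per cell cannot be told apart. Markers of T and B lymphocytes and dendritic cells summed to 0.168 to 0.597 CPM in every library and 0 of 12 were tested. The 16 macrophage markers summed to 18.2 to 32.9 CPM in E10.5 wild type, 26.4 to 47.8 in Del(i9-13), 19.2 to 51.7 in the combined mutant and 9.94 to 23.96 in Hoxb13hd, and 1 of them, Cx3cr1, passed the overall test. Of the 16, 0 were at 0 throughout an E10.5 group. Of 12 markers of decidua and trophoblast, 5 and 7 were tested at the 2 stages and Dcn alone passed, and of 12 endothelial markers Robo4 alone did, both higher in the combined mutant than in Hoxb13hd, where 0 H2 genes passed. Class II levels were highest in Hoxb13hd. The macrophage markers had a median log2 difference of −0.10 there against wild type, with single markers in both directions and sums that overlapped those of wild type. The part of macrophages in the H2 values was not tested.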

How the data were processed

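The submitters trimmed adapters with cutadapt 1.18, aligned with STAR 2.7.10a to mm10 and ran Cufflinks 2.2.1, per the submitters' processing notes. The deposited tables hold raw gene counts (55141 genes) and FPKM per library (55138 genes), and the sources used here do not give their gene models. Counts were tested with edgeR 4.0.16 (R 4.3.3) by the quasi-likelihood method, robust, after filterByExpr (minimum count 10, minimum total 15) and TMM scaling, with stages fitted apart and Benjamini-Hochberg adjusted p-values over all genes at 0.05. Standard errors were taken from the log2 fold change and its F value. Alternatives were DESeq2 1.42.0 and limma 3.58.1 on log2 of FPKM plus 1 or 0.1 (genes at FPKM 1 or more in 3 libraries), other filters and scalings, a replicate block, Xist as a covariate, and leaving out each library. FPKM otherwise served only to rank levels between genes. Cufflinks starts were written 1-based, and exon words and sequences came from GENCODE M21, in which 45 members matched. The members and the gene lists were chosen with earlier results of these data known. All H2 genes called or at 1 CPM or more in a group are named. Some others are named as well, such as H2-Q10, H2-Aa and H2-M3. Replicate pairs differed beyond sampling noise (chi-square per degree of freedom 8.9 to 45.6 over 18 pairs). The tests were checked on simulated data.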

Additional observations from a re-analysis of the deposited data

How the results depend on the processing

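Of the 15 H2 and A930015D03Rik calls, those in the overall test have no direction. Among the others 0 changed direction under the alternatives run, while 2 differences of the class I sum near 0 changed sign without 1 library. H2-T24 and H2-Bl in the combined mutant against Del(i9-13) and in the overall test, and A930015D03Rik in each comparison that called it, passed in every alternative that could test them. H2-Q7 passed the overall test except without the combined mutant replicate 1 (adjusted p = 0.052). DESeq2 gave no adjusted p for H2-T24 and H2-Bl in the combined mutant against Del(i9-13) or for H2-Bl in Hoxb13hd against wild type, and the FPKM filter removed H2-T24.

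The number of H2 genes called moved as follows. The number called over all genes is in brackets, except for the fits without 1 library. In the overall test it was 3 (756), 6 with no filter on counts (1014) and 7 by DESeq2 (2289). In E10.5 Del(i9-13) against wild type it was 1 (84). It was 0 with limma on FPKM plus 0.1 (54) and with limma without a filter (46). It was also 0 with only the groups compared (55) and with Xist as a covariate (69). In the combined mutant against Del(i9-13) it was 4 (156), and 2 with only the groups compared (76). In the combined mutant against wild type it was 1 (69) and 2 by DESeq2 (326). It was 0 with limma on filtered FPKM plus 1 (31) or 0.1 (28) and with Xist (28). In Hoxb13hd against wild type it was 2 (517). It was 1 by DESeq2 (1240), both filtered limma fits (293 each), only the groups compared (333) and Xist (251). With the replicate block it was also 1 (451), with H2-Bl lost at an adjusted p of 0.053. At E9.5 it was 0 (58), and 1 by DESeq2 (329). Leaving out 1 library gave 2 to 5 in the overall test, 0 to 1 in E10.5 Del(i9-13) against wild type, 3 to 7 in the combined mutant against Del(i9-13), 0 to 1 in the combined mutant against wild type, 0 to 2 in Hoxb13hd against wild type, and 0 in the other 2. Genes of the interval without an H2- name numbered 8 in the overall test (756) and 20 by DESeq2 (2289). They numbered 4 by both filtered limma fits (585 and 572), 2 by limma without a filter (182) and 5 with Xist (519). Without 1 library they numbered 1 to 26. At E9.5 they numbered 0 (58), and 1 by DESeq2 (329) and with the replicate block (79). The median shared share of class I genes was 3.71% of words, 9.59% at 50 bases and 0% at 100.

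Leaving out 1 library moved the class I sum to between −0.21 and −0.17 in E10.5 Del(i9-13) against wild type, 0.25 and 0.37 in the combined mutant against Del(i9-13), −0.04 and 0.26 in the combined mutant against Hoxb13hd, 0.06 and 0.18 in the combined mutant against wild type, −0.14 and 0.16 in Hoxb13hd against wild type and −0.16 and −0.06 at E9.5. Over all genes DESeq2 called 2289 in the overall test where edgeR called 756, and the replicate block left 583. Same-numbered libraries deviated together only in part (r 0.01 to 0.13 at E9.5, where 3 of 6 libraries correlated best with their own number, and −0.25 to 0.18 at E10.5, where 3 of 12 did), so the numbers were not taken as pairs. The block also left H2-Q4 uncalled in the combined mutant against Del(i9-13) (adjusted p = 0.071). The cause of these changes was not tested. Levels of 1 to 10 reads limit H2-T24, H2-Bl and H2-Aa most.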
